A study of Arabidopsis thaliana with 16 samples.

Results

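UPB1 (UPBEAT1, AT2G47270), a basic helix-loop-helix (bHLH) transcription factor of the Arabidopsis thaliana root, and 7 class III peroxidase genes linked to root growth were followed through 4 sorted root tip populations. The peroxidase genes were PER33 (AT3G49110), PER34 (AT3G49120), PER37 (AT4G08770), PER38 (AT4G08780), PER39 (AT4G11290), PER40 (AT4G16270) and PER57 (AT5G17820). These 8 members were found by gene ID among 33201 loci, and all 8 were in the table. They were selected on the pooled levels and log2 ratios of these same populations, so their values are given as a description and carry no test.

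Class III peroxidases are secreted haem enzymes that use hydrogen peroxide. In the cell wall they can stiffen the wall by cross-linking phenols and structural proteins, or loosen it by making hydroxyl radicals, and they set how much superoxide and hydrogen peroxide the apoplast holds. In the Arabidopsis root superoxide is enriched in the dividing zone and hydrogen peroxide in the elongating zone. UPB1 is known as a repressor of a set of peroxidase genes, PER39, PER40 and PER57 among them, and loss of UPB1 enlarges the dividing zone.

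All cells came from root tips of 5-day-old seedlings, cut about 1 mm from the end, freed of their walls by protoplasting and sorted by green fluorescence. The w5C6 population held GFP-positive cells of a wox5 mutant carrying pCYCD6:GUS-GFP, and the C6 population held GFP-positive cells with the same reporter and no wox5 mutation. This reporter uses the promoter of the D-type cyclin gene CYCD6;1 and marks the stem cell of cortex and endodermis, known as the cortex endodermis initial (CEI). In wox5 roots the authors saw the reporter spread into cortex and endodermal cells, which they call CEI-like. The w5C6 and C6 populations can therefore differ in the cells sorted as well as in WOX5. The W5S population held GFP-positive cells of a pWOX5:erGFP line, whose promoter marks the quiescent centre (QC), and the W5NS population held the GFP-negative cells sorted from that same line. Each population had 4 libraries. The deposited table gave 1 value per locus and population, the authors' pooled value, taken to be FPKM (sequenced fragments relative to the length of the transcript and the size of the library). The values used were pooled over libraries and the authors' own q-values were not used, so the differences below are given without an SD or a p-value and were not set against the spread between libraries, and the depth of the libraries is unknown. Comparisons of w5C6 or C6 with W5S or W5NS also compare reporter lines, and each population enters 3 of the 6 comparisons, so these share their values. W5NS can hold any root tip cell that was sorted as GFP-negative, those of the CEI included.

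The sorted populations were checked against markers of the cell types they could hold. WOX5 read 0.0865 FPKM in w5C6, 18.4 in C6, 206 in W5S and 42.1 in W5NS, so the GFP-negative population was not free of WOX5 RNA. The other QC markers were close in both populations of the pWOX5 line, with PLT1 at 172 FPKM in W5S and 151 in W5NS and PLT2 at 78.4 in W5S and 71.1 in W5NS. CYCD6;1 read 7.01 FPKM in w5C6, 9.75 in C6, 0.828 in W5S and 7.02 in W5NS. The gene behind the CEI reporter was thus at a like level in both populations sorted by that reporter and in W5NS. Its level does not show an enrichment of CEI cells over W5NS. Summed over 10 endodermis markers, the level was 169 FPKM in w5C6, 890 in C6, 230.0 in W5S and 218 in W5NS. The most abundant genes lead such sums, here CASP1 at 389 FPKM in C6 and 13.3 in w5C6. In w5C6, 6 of the 10 were more than 2-fold below C6. SCR (47.6 FPKM in w5C6 and 48.9 in C6) and EN7 (63.0 and 58.9) were nearly level. Summed over 6 epidermis and root hair markers the level was 941, 632, 418 and 319 FPKM in w5C6, C6, W5S and W5NS. EXPA18 led this sum with 575, 432, 204 and 157 FPKM, while WER read 14.5, 14.9, 33.5 and 38.6. Over 5 root cap markers the sum was 120, 221, 418.0 and 323 FPKM in the same order. No gene of these 3 lists was at 0 in any population. Over 6 vascular markers the sum was 56.8, 46.6, 64.5 and 74.7 FPKM in the same order. Of these, 2 were past 2-fold higher in w5C6 over C6, APL (7.33 against 1.86 FPKM) and S32 (4.71 against 0). ATHB8 was past 2-fold lower (1.61 against 5.45) and read 29.9 in W5S and 32.5 in W5NS. The w5C6 population stood apart in photosynthesis genes, with 2670 FPKM summed over 4 of them, against 11.6 in C6, 0.3 in W5S and 2.0 in W5NS. The part of these cell types and of the w5C6 libraries in the results below was not tested.

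UPB1 stood at 125 FPKM in w5C6, 71.1 in C6, 64.5 in W5S and 40.5 in W5NS. It was the only transcription factor among the members and was present in all 4 populations, above 96.0% of all loci in w5C6, 92.4% in C6, 92.5% in W5S and 88.8% in W5NS. The order w5C6, C6, W5S, W5NS spanned 3.09-fold on the FPKM scale. The w5C6 value was 1.76-fold that of C6, a log2 ratio of (FPKM + 1) of 0.81, and the C6 value was 1.76-fold that of W5NS, a log2 ratio of 0.80. Each of these steps lay under 2-fold, while w5C6 over W5NS reached a log2 ratio of 1.60, and w5C6 over W5S stopped at 0.94. C6 and W5S differed by 1.1-fold, and the sign of that difference turned when the populations were scaled to the same FPKM sum (log2 ratio -0.13) or centred on their median ratio (-0.01). In bulk RNA, fewer cells of a type and less RNA per cell cannot be told apart, here or in any level below.

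PER57, one of the peroxidases under UPB1, was the most abundant member. It read 1116 FPKM in w5C6, 677 in C6, 356 in W5S and 379 in W5NS, which put it at place 68 of all loci from the top in w5C6, 207 in C6, 364 in W5S and 275 in W5NS. W5S and W5NS stood close together, at a log2 ratio of -0.09, with C6 and then w5C6 above both. The log2 ratio was 0.72 in w5C6 over C6, 1.55 in w5C6 over W5NS and 0.83 in C6 over W5NS. PER57 read highest in the same population as its repressor: the FPKM ratio of PER57 to UPB1 was 8.92 in w5C6, 9.51 in C6 and 9.37 in W5NS, and lower in W5S at 5.51. This is a description over 4 values that share the population columns.

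PER39, another peroxidase under UPB1 and one of the peroxidases of the Casparian strip list, read 46.0 FPKM in w5C6, 65.2 in C6, 53.4 in W5S and 16.2 in W5NS. W5NS was the low population and the other 3 lay within 1.42-fold of each other. The log2 ratio was 1.45 in w5C6 over W5NS, 1.94 in C6 over W5NS and 1.66 in W5S over W5NS, all past 2-fold, and -0.49 in w5C6 over C6. Relative to UPB1, PER39 was at an FPKM ratio of 0.368 in w5C6, 0.916 in C6, 0.828 in W5S and 0.40 in W5NS, so w5C6 and W5NS were alike in this ratio although both genes read higher in w5C6 than in W5NS.

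PER40, the remaining peroxidase of that group of targets, was the only member highest in QC marker cells. It read 0.450 FPKM in w5C6, 0.712 in C6, 7.03 in W5S and 0.945 in W5NS. The W5S value stood 7.44-fold over the next population, and the log2 ratio was 2.05 in W5S over W5NS, -2.23 in C6 over W5S and -2.47 in w5C6 over W5S. Whether all 4 W5S libraries carried PER40 cannot be read from a pooled value. In RefSeq's TAIR10.1 annotation 869 bases of PER40 overlap a pseudogene on the opposite strand, AT4G16267, and no source used here states that reads were counted by strand. The pseudogene itself was listed at 0.161 FPKM in w5C6, 0 in C6, 0.169 in W5S and 0.755 in W5NS. Reads in the overlap could be counted under PER40 or AT4G16267, and how they were shared was not tested.

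PER37 (Prx37), whose overexpression is known to stunt Arabidopsis growth, had the widest range among the members above 10 FPKM. It read 68.8 FPKM in w5C6, 106 in C6, 26.2 in W5S and 10.6 in W5NS, a span of 9.97-fold. The CEI marker populations were the high ones, with w5C6 below C6 by a log2 ratio of -0.61. The log2 ratio was 2.59 in w5C6 over W5NS, 3.20 in C6 over W5NS, 1.23 in W5S over W5NS, 1.97 in C6 over W5S and 1.36 in w5C6 over W5S, all past 2-fold. In C6 over W5NS 99.7% of the loci compared had a smaller ratio.

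PER38 is the closest relative of PER37 and was hardly seen. It read 0.483 FPKM in w5C6, 0.471 in C6, 0.920 in W5S and 1.02 in W5NS, with no log2 ratio outside -0.46 to 0.01. Its order ran against that of PER37, with W5NS highest and C6 lowest, but every value was near 1 FPKM or below. The coding sequences of the pair were 93.8% identical in RefSeq (976 of 1041 aligned bases), so exchange of reads had to be looked at. Reads were sequenced to 100 bases, and only 2 of the 1300 windows of 100 bases in the PER37 transcript were also found in PER38. An exact PER37 read of full length thus matched PER38 in few places. Trimmed reads and reads with mismatches were not looked at, so the exchange could be larger. PER38 shared 46 of its 1078 windows, mostly with the nitrilase family gene AT4G08790, which overlaps it by 143 bases on the opposite strand and read 13.4, 11.7, 16.6 and 12.4 FPKM in w5C6, C6, W5S and W5NS. The level of PER38 is uncertain for this reason.

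The contrast between PER37 and PER38 made their upstream sequences worth showing. In TAIR10.1 PER37 lies on the minus strand at chr4:5598037-5600398 and PER38 on the plus strand at chr4:5604105-5608290, head to head with 3706 bases and no annotated gene between them. The build behind the deposited table is not given in the sources used here, the table holds no coordinates, and the genes were matched by ID. The 250 bases before each annotated gene start are printed 5′ to 3′ on the strand of the gene, with each E-box core, CANNTG, in capitals. This short pattern is bound by many bHLH proteins. PER37 is read from chr4:5600399-5600648, minus strand, and PER38 from chr4:5603855-5604104, plus strand.
PER37: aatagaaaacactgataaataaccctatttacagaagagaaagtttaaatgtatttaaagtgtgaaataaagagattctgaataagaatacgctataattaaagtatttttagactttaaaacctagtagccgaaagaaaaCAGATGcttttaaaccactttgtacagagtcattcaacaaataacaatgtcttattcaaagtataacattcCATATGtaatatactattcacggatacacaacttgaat
PER38: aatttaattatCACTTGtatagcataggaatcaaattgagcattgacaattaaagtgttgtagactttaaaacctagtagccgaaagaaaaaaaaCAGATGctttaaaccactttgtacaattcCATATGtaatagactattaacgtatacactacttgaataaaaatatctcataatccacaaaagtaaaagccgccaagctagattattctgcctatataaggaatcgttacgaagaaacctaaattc
Of all 28 pairs among the members, this was the only one with a long upstream match: 67 of 75 aligned columns were identical, with an unbroken run of 31 bases, while no other pair shared a run over 12. Both windows held CAGATG and CATATG in the same order. CATATG began at -174 from the start codon in both genes. The shared block stood nearer the annotated gene start in PER37 (-154 to -84) than in PER38 (-203 to -131), and 136 bases lie between gene start and start codon in PER37, 48 in PER38. Similar upstream letters stood beside levels of 106 and 0.471 FPKM in C6.

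UPB1 had the same E-box, CATGTG, at 2 places close to its own start, at -41 and -31. Its window is shown because it holds the only pair of identical E-boxes within 10 bases among the members, read from chr2:19412329-19412578, minus strand.
UPB1: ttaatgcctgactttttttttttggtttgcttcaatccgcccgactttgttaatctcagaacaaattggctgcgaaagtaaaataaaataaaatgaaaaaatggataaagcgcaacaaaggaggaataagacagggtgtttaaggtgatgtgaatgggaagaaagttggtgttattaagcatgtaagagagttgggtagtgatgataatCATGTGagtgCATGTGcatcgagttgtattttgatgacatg
E-box cores were searched on both strands, and no match overlapped another motif. The pattern CANNTG is its own reverse complement, but a core such as CATGTG reads CACATG on the other strand. PER33 held CATGTG at -247 and PER40 held CACATG at -164, so the core of UPB1 was not its own. PER33, PER34 and PER40 held 1 each, PER37 and PER39 held 2, PER38 held 3, and PER57, the most abundant member, held none. In RefSeq's annotation the gene starts of PER40 and PER57 coincide with their start codons, so their windows may hold transcribed sequence. A CANNTG core was present in 55.3% of 27443 upstream windows of protein-coding genes, so 7 of 8 members with one is a description and no sign of a site. The form CACGTG, a special case of CANNTG, was in none of the members and in 6.49% of all windows. TATAAA, on either strand, was found in PER34, PER40 and PER57 and in 47.3% of all windows.

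**Figure D1:**
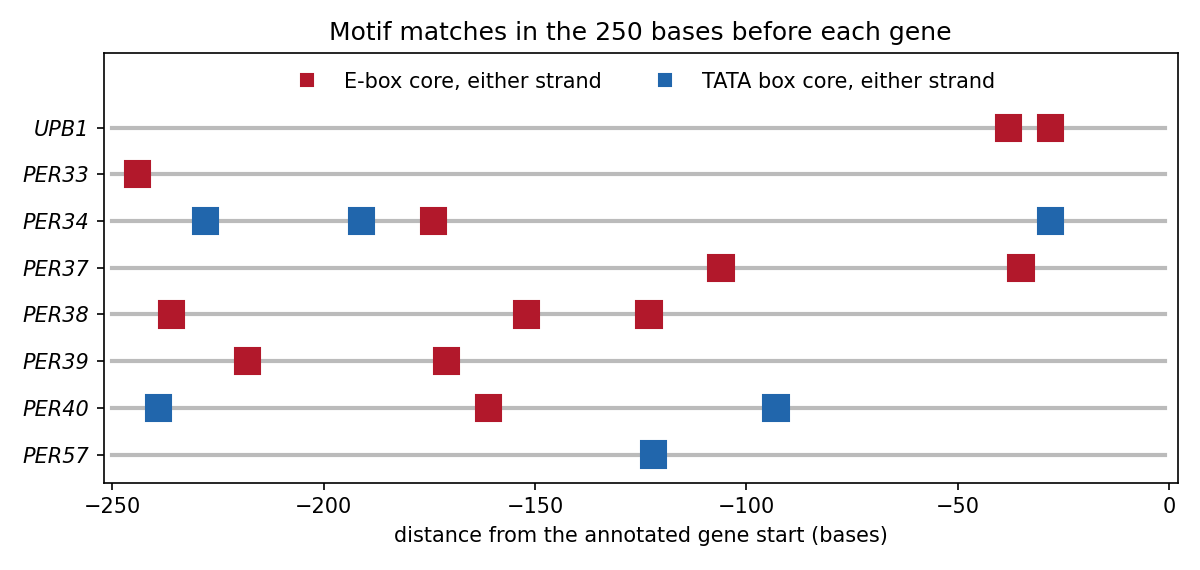
Positions of E-box cores (red) and TATAAA (blue, either strand) in the 250 bases before the annotated gene start of each member. The horizontal axis is the distance from the gene start in bases. UPB1 has its 2 E-boxes at -41 and -31, PER38 has 3, and PER57 has none.

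PER33 and PER34 encode a pair of close peroxidases known in Arabidopsis for root elongation and for the oxidative burst of defence. PER33 was listed at 0.492 FPKM in w5C6, 0 in C6, 0 in W5S and 0.102 in W5NS, under 1 FPKM everywhere. PER34 read 2.84 FPKM in w5C6, 0.434 in C6, 0.783 in W5S and 1.11 in W5NS. The w5C6 population was the high one for both genes, and for PER34 it stood 6.54-fold over C6 on the FPKM scale. Loci at 0 were also fewest in w5C6 (3957, against 5849 in C6, 8239 in W5S and 5560 in W5NS). A higher reading of low genes in w5C6 was thus not particular to this pair. On the log2 scale with 1 FPKM added the PER34 ratio of w5C6 over C6 was 1.42, and it was under 2-fold with 5 FPKM added (0.53). Their coding sequences were 90.4% identical, with 12 windows of 100 bases shared, so a small part of their exact reads of full length could be exchanged. Shorter reads and reads with mismatches were not looked at. They lie on the same strand, 4385 bases apart, with 1 gene between. To PER37 and PER38 they were 72.9 to 74.4% identical, while PER39, PER40 and PER57 stood at 42.0 to 50.1% to every other peroxidase among the members.

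**Figure D2:**
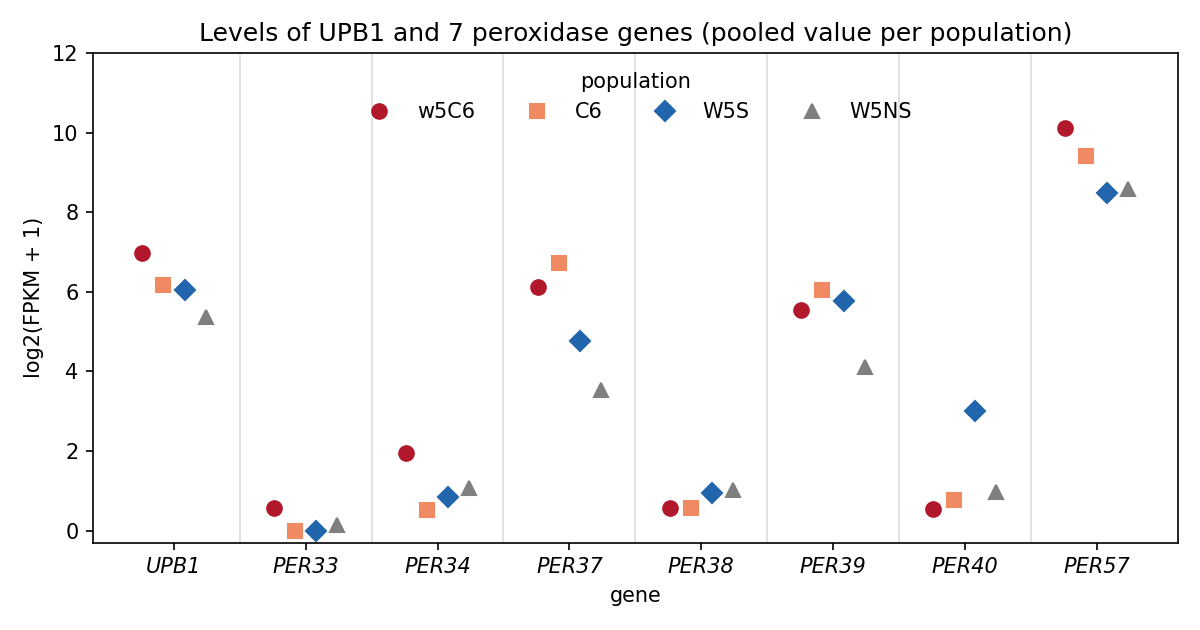
Levels of UPB1 and the 7 peroxidase genes as log2(FPKM + 1) in w5C6, C6, W5S and W5NS, 1 pooled value per population, so no error bars can be drawn. PER57 tops all members in every population (356 to 1116 FPKM), PER37 spans 9.97-fold, and PER40 stands out in W5S at 7.03 FPKM.

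The 6 comparisons set these levels against the background of all loci. A member counted as measured if its higher population had 1 FPKM or more, and as past 2-fold with a log2 ratio of (FPKM + 1) over 1 or under -1. In w5C6 over C6 both the WOX5 genotype and the set of cells that carry the CEI reporter can differ. Here 1 of 5 measured members was past 2-fold, PER34, against 17.2% of 22322 loci compared (12.3% higher, 4.9% lower). UPB1 and PER57 were higher in w5C6 and PER37 and PER39 lower, each by less than 2-fold. The median log2 ratio of the measured members was 0.72, against 0.10 over all loci compared. The share past 2-fold was thus near the background.

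In C6 over W5NS, wild-type cells of the CEI reporter against GFP-negative cells of the other line, 2 of 6 measured members were past 2-fold, PER37 and PER39, both higher, against 18.3% of loci past 2-fold either way (11.9% higher, 6.46% lower). Their median log2 ratio was 0.82, against 0.11 over all loci compared. In w5C6 over W5NS, 4 of 6 were past 2-fold and higher, UPB1, PER37, PER39 and PER57, against 20.1% of loci either way (16.3% higher, 3.81% lower), and the median was 1.50, against 0.22. Both comparisons use the same W5NS values. Of the other class III peroxidases, 20 of 45 measured were also past 2-fold higher in w5C6 over W5NS. Of the 10 endodermis markers, 9 were past 2-fold higher in C6 over W5NS, as PER37 and PER39 were. In w5C6 over W5NS, 3 markers were past 2-fold higher, SCR (log2 ratio 1.40), EN7 (1.34) and MYB36 (1.13), and 6 were lower. PER37 and PER39 were both higher there. The part of endodermal cells in the levels of PER37 and PER39 was not tested.

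In W5S over W5NS, GFP-positive against GFP-negative cells of the pWOX5 line, 3 of 7 measured members were past 2-fold higher, PER37, PER39 and PER40. The share of loci was 17.0% either way (6.32% higher, 10.7% lower), and the median of the members was 0.66, against -0.09. W5S over W5NS was the only comparison with W5NS inside a single reporter line. The root cap markers BRN1 (146 FPKM in W5S, 33.3 in W5NS) and BRN2 (126 and 32.4) were also past 2-fold higher in W5S, while FEZ (24.9 and 52.8) was past 2-fold lower and SMB (48.2 and 72.2) and PIN3 (72.8 and 133) were lower within 2-fold. Their part in the levels of PER37, PER39 and PER40 was not tested. In C6 over W5S, 1 of 5 was higher, PER37, and 1 lower, PER40, against 27.8% of loci past 2-fold (19.1% higher, 8.64% lower), with a median of 0.28, against 0.22. In w5C6 over W5S, 3 of 6 were higher, PER34, PER37 and PER57, and 1 lower, PER40, against 34.2% of loci (26.6% higher, 7.54% lower), with a median of 1.02, against 0.36. PER34 lay at the edge there, at 1.11, and came to 0.99 with the populations scaled to the same FPKM sum and 0.95 centred on the median ratio. All these shares are a description, since the members were chosen with the ratios known.

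**Figure D3:**
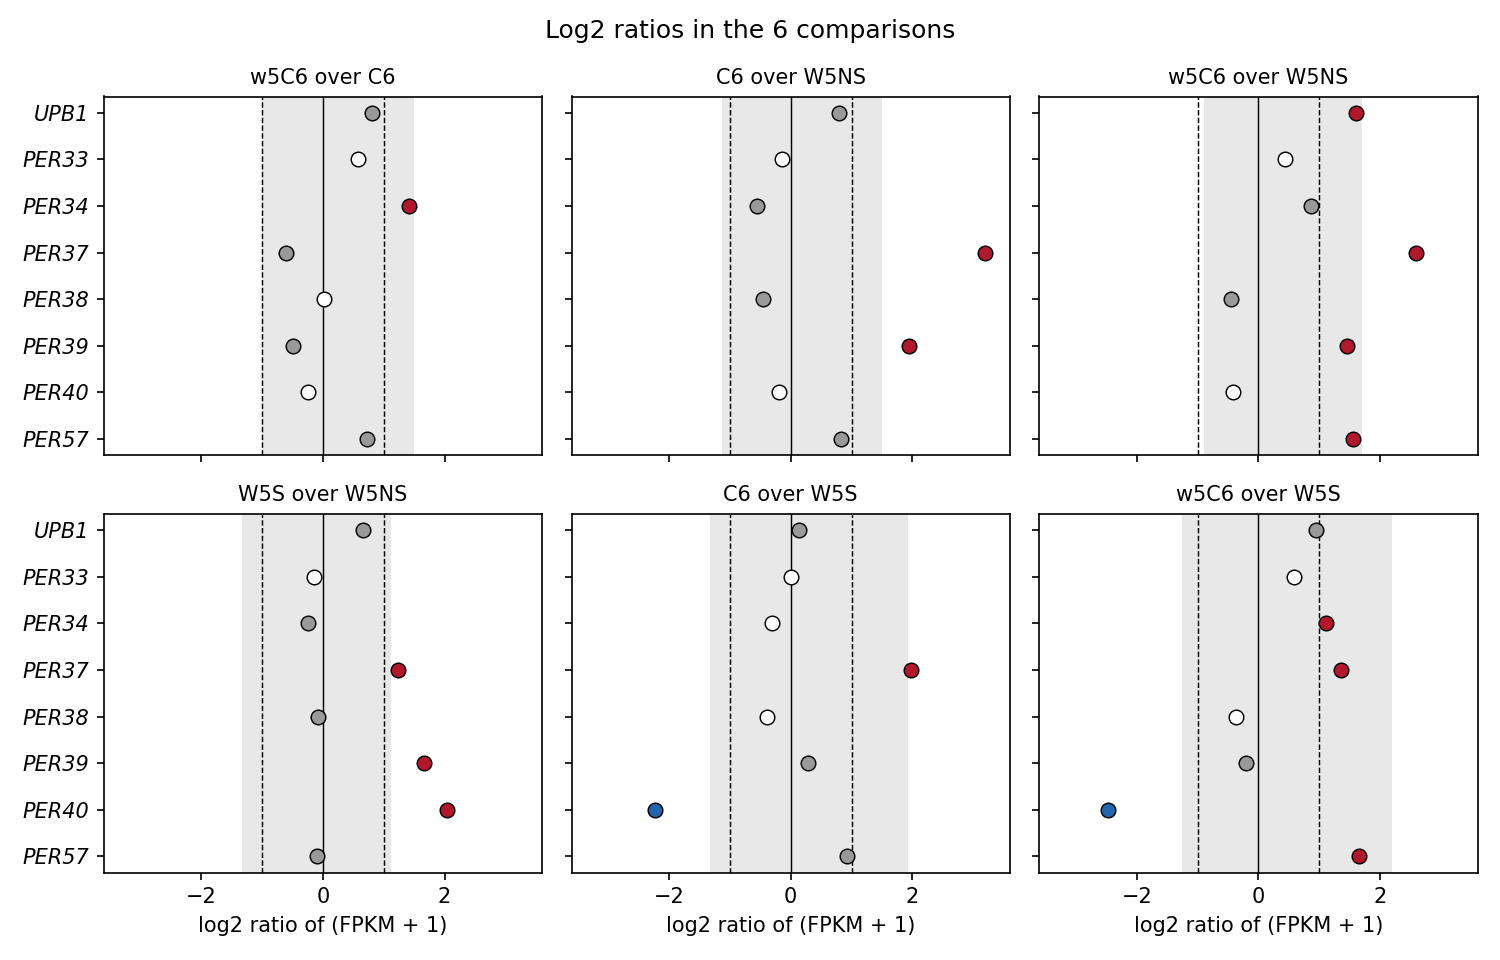
Log2 ratios of (FPKM + 1) for each member in the 6 comparisons, each with the population named before "over" on top of the ratio. Filled red points are past 2-fold higher, blue past 2-fold lower, grey within 2-fold, and open points are under 1 FPKM in both populations; dashed lines mark 2-fold and the grey band holds the central 90% of loci compared. PER37 lies outside the band in C6 over W5NS (3.20) and PER40 lies left of it in both comparisons with W5S below the line (-2.23 and -2.47).

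The members were then set in the peroxidase family. All 73 Arabidopsis class III peroxidases were in the table, and 71 of them are named peroxidase by RefSeq, while PER60 and PER73 are named root hair specific. Summed over the family the level was 6541 FPKM in w5C6, 6148 in C6, 3305.5 in W5S and 2649 in W5NS, and the 7 members made up 18.9, 13.8, 13.4 and 15.4% of it in that order. PER45 was the most abundant in every population, with 1136 FPKM in w5C6, 1003 in C6, 567 in W5S and 413 in W5NS. PER57 came next in w5C6, C6 and W5NS and after PER27 in W5S, and alone made up 17.1% of the family in w5C6, 11.0% in C6, 10.8% in W5S and 14.3% in W5NS. PER37 and PER39 held middle places, 18 and 20 in w5C6, 17 and 22 in C6, 23 and 16 in W5S and 29 and 26 in W5NS.

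Of the 36 peroxidases with at least 10 FPKM in a population, 17 were highest in w5C6, 14 in C6, 2 in W5S and 3 in W5NS. PER57 belonged to those highest in w5C6, and PER37 and PER39 to those highest in C6. Among the other 66 peroxidases, 21 of 46 measured were past 2-fold higher in C6 over W5NS and 2 lower, with a median log2 ratio of 0.79, near the 0.82 of the members. In w5C6 over C6, 7 of 45 were higher and 7 lower, with a median of 0.18, and in W5S over W5NS 4 of 42 were higher and 8 lower, with a median of -0.15. In w5C6 over W5NS 20 of 45 were higher and 2 lower, with a median of 0.88. In C6 over W5S 18 of 44 were higher and 1 lower (median 0.71), and in w5C6 over W5S 19 of 43 were higher and 5 lower (median 0.83). PER69, also among the most abundant, read 567 FPKM in w5C6, 586 in C6, 287 in W5S and 222 in W5NS.

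Among peroxidases with at least 10 FPKM in the higher population, those past 2-fold between w5C6 and C6 lay outside the members, and the 4 with the largest ratio in each direction are given here. PER5 read 11.9 FPKM in w5C6, against 1.89 in C6, PER4 25.5 against 6.82, PER54 11.3 against 3.46 and PER56 86.4 against 36.7. On the low side PER72, a lignifying peroxidase, read 8.78 FPKM in w5C6, against 333 in C6, PER64, needed for the Casparian strip, 17.6 against 188, PER61 30.4 against 86.9 and PER32 28.6 against 78.1. In C6 over W5NS the highest ratios next to PER37 were those of PER49 (14.7 FPKM in C6, 0.721 in W5NS), PER15 (10.5 and 0.392) and PER72 (333 and 42.8), and PER26 was lower (28.7 and 93.6). Of the 5 peroxidases of the Casparian strip list, PER9, PER64 and PER72 were past 2-fold lower in w5C6 over C6, whereas PER39 (-0.49) and PER3 (98.1 FPKM in w5C6, 136 in C6) were not.

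**Figure D4:**
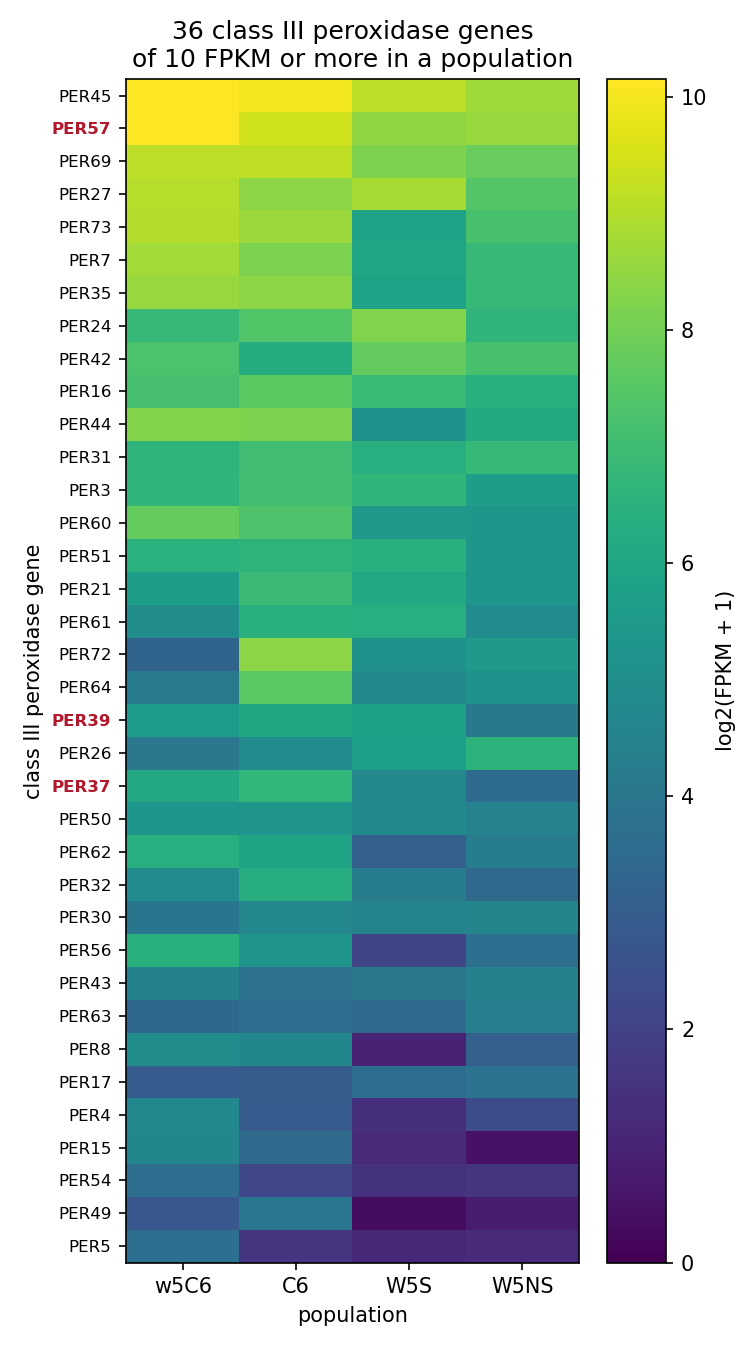
Levels of the 36 class III peroxidases with at least 10 FPKM in a population, as log2(FPKM + 1), ordered by mean level, in w5C6, C6, W5S and W5NS. Members are in red; PER57 is next to the top, PER37 and PER39 stand midway, and PER72 and PER64 are bright in C6 (333 and 188 FPKM). PER43 is read from a locus that names several gene IDs.

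The enzymes around the peroxidases were described from lists of the reactive oxygen pathway. NADPH oxidases make apoplastic superoxide. Of 10 genes, 2 of 7 measured were past 2-fold higher in C6 over W5NS, RBOHB and RBOHE, 6 of 8 were higher in w5C6 over W5NS, and 2 of 7 were lower in W5S over W5NS. RBOHC, the root hair oxidase, read 64.7 FPKM in w5C6, 42.7 in C6, 24.7 in W5S and 21.6 in W5NS, an order shared with UPB1. RBOHB read 19.6 FPKM in w5C6, against 49.0 in C6, and 4.12 in W5S and 5.22 in W5NS, so it was the only oxidase past 2-fold in w5C6 over C6. RBOHF, which acts at the Casparian strip, read 28.2, 33.7, 13.2 and 18.0 FPKM in w5C6, C6, W5S and W5NS.

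Superoxide dismutases turn superoxide into hydrogen peroxide. None of 7 measured was past 2-fold in w5C6 over C6, and only FSD1, an iron superoxide dismutase, was in C6 over W5NS (53.3 against 17.7 FPKM). CSD1, the cytosolic copper and zinc form, read 706 FPKM in w5C6, 645 in C6, 721 in W5S and 518 in W5NS, while the mitochondrial MSD1 read 268, 229, 274 and 197 and the plastid CSD2 124, 131, 70.7 and 96.1. Catalases and ascorbate peroxidases remove hydrogen peroxide inside the cell. None of 8 measured was past 2-fold in C6 over W5NS, and 2 of 9 were higher in w5C6 over C6. These were APX4 (8.81 against 0.851 FPKM) and TAPX (6.88 against 2.28), nuclear genes for plastid proteins. The 4 photosynthesis genes were also higher in w5C6 (2670 FPKM summed, against 11.6 in C6), and a link to them was not tested. The abundant APX1 read 1203 FPKM in w5C6, 1007 in C6, 860.3 in W5S and 852 in W5NS, CAT2 189, 145, 114 and 102, and SAPX 149.9, 150.4, 136 and 162.

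**Figure D5:**
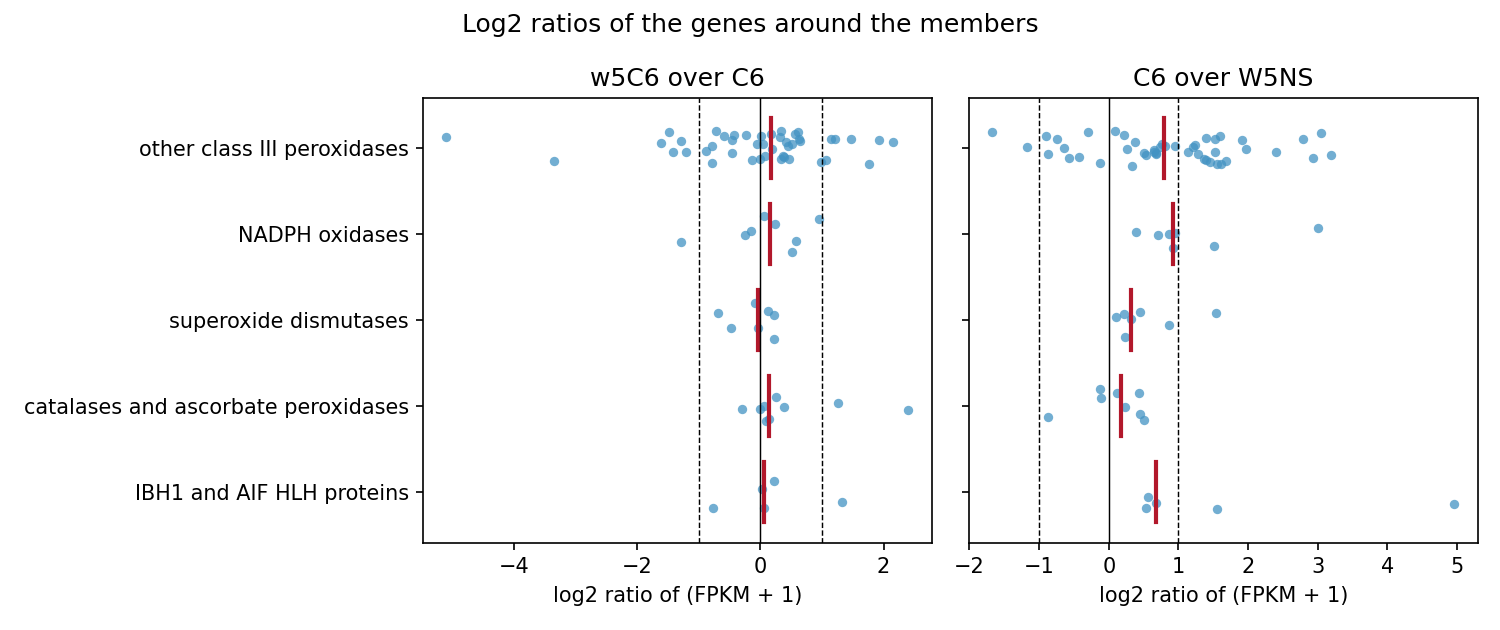
Log2 ratios of (FPKM + 1) in w5C6 over C6 (left) and C6 over W5NS (right) for genes around the members with at least 1 FPKM in the higher population; each point is a gene, the red bar is the median of the list and dashed lines mark 2-fold. In C6 over W5NS the other class III peroxidases have a median of 0.79 and the NADPH oxidases of 0.92, against 0.32 for superoxide dismutases and 0.18 for catalases and ascorbate peroxidases.

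UPB1 belongs to the bHLH-related proteins near IBH1 and the AIF proteins, small repressors of cell elongation. AIF3 differed most, with 46.6 FPKM in w5C6, 45.6 in C6, 0.0460 in W5S and 0.495 in W5NS. AIF1 read 37.8 FPKM in w5C6, 14.5 in C6, 6.89 in W5S and 9.43 in W5NS, the only one of 5 past 2-fold in w5C6 over C6. AIF4 read 38.4, 36.9, 22.9 and 22.6 FPKM and IBH1 9.90, 17.5, 5.05 and 5.31 in that order. Of other regulators of root reactive oxygen, RITF1 read 27.8 FPKM in w5C6, 38.4 in C6, 12.9 in W5S and 23.9 in W5NS, KUA1 22.3, 14.0, 17.3 and 13.9, and MYB30 1.26, 3.37, 1.83 and 4.01. None of these 3 was past 2-fold either between w5C6 and C6 or between C6 and W5NS.

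For each member with at least 10 FPKM, the 3 loci with the most similar pattern were found among 13013 loci, by the distance between centred log2(FPKM + 1) values over the 4 populations. A distance over 4 points is a weak measure of likeness. Nearest to UPB1 were AT4G35200, a gene of unknown function (distance 0.07), the root hair gene COBL9 (SHV2, 0.11), and the receptor-like kinase gene CRK11 (0.15). COBL9 read 130.5 FPKM in w5C6, 81.4 in C6, 74.2 in W5S and 44.3 in W5NS, close to UPB1 in level as well, and the other hair markers EXPA7 (195, 93.0, 61.0 and 48.4 FPKM) and EXPA18 (575, 432, 204 and 157 FPKM) had the same order. RHD6, WER and GL2 of that list had other orders, with W5S or W5NS highest. The part of hair-forming cells in the UPB1 level was not tested.

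Nearest to PER57 were AT4G21215 of unknown function (0.06), the aspartyl protease gene AT3G51330 (0.07) and AT3G28550 (0.09), which encodes an extensin-like wall protein and read 660.3 FPKM in w5C6, 393 in C6, 204 in W5S and 236 in W5NS. Nearest to PER37 were AT3G13175 (0.12), AT5G66053 (0.28) and AT1G78190 (0.31), and nearest to PER39 were AT2G29995, annotated as similar to the peptide PSY3 (0.19), the zinc finger gene ZAT11 (0.19) and the lectin gene AT1G78860 (0.23). Among the members themselves UPB1 and PER57 lay nearest, at 0.65, and all other pairs of these 4 lay at 1.16 to 1.78. By distance from UPB1, PER57 was at place 540 of 13013 loci. By distance from PER37, PER39 was at place 393 and PER57 at place 909. The remaining pairs stood at places 5182 to 11007.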

How the data were processed

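RNA from sorted root tip protoplasts was amplified by the authors with a SMART-Seq kit for low input and sequenced as single reads of 100 bases. Reads were trimmed with fastq-mcf, aligned with HISAT2 and quantified with Cufflinks within TuxNet, of which the processing notes of the submitters name HISAT2 and Cufflinks without versions. The build and gene models of that alignment are likewise not given in the sources used. The authors deposited 1 pooled value per locus for each of the 4 populations, read as FPKM; no unit stands in the header, and FPKM is inferred from the pipeline. The 12 columns with the authors' own log2 folds and q-values for the 6 pairs were not used. Loci numbered 33201, of which 282 name several gene IDs and were counted once, and 32756 of 33493 gene IDs matched the RefSeq TAIR10.1 gene table.

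Ratios were computed as log2 of (FPKM + 1), which understates changes of low genes. Loci with at least 1 FPKM in the higher population were counted against 2-fold. No test across libraries was run, since the columns used are pooled over libraries. FPKM sums differed between populations (907405 in w5C6, 957091 in C6, 794518 in W5S and 726062 in W5NS). Over 16670 loci with at least 1 FPKM everywhere, the median log2 ratio was 0.01 in w5C6 over C6 and -0.02 in W5S over W5NS. It was 0.12 in both w5C6 and C6 over W5NS, and 0.15 in both over W5S. Member ratios can be read against these shifts. The members and gene lists were chosen with earlier results of these data known. Named genes were the members, the 3 highest of each pathway list, up to 4 per list and direction past 2-fold in w5C6 over C6 or C6 over W5NS with at least 10 FPKM, and the 3 nearest loci of each member with at least 10 FPKM. PER9, PER27, PER60, PER73, APX4 and TAPX fall outside this rule and were named after their values were seen. The same holds for the root hair genes other than COBL9 and for the QC, endodermis, epidermis, root cap and vascular markers. Upstream windows, coding sequences and overlaps were read from RefSeq TAIR10.1. Alternatives were other pseudocounts, filters, folds, scalings and a Pearson measure of likeness. The code was checked on simulated data. Python 3.11.15, pandas 2.3.3, NumPy 2.4.6, Biopython 1.88 and matplotlib 3.10.9 were used.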

Additional observations from a re-analysis of the deposited data

How the results depend on the processing

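Of 234 member ratios under other pseudocounts, filters and scalings, 220 kept their side of 2-fold and stayed within 1.5-fold, 14 moved, all of PER34 or PER40, and none past 2-fold changed sign. The count of members past 2-fold in w5C6 over C6 was 1 and came to 0 with 5 FPKM added, with a minimum of 10 FPKM and at 3-fold, since PER34 was the only one. In w5C6 over W5NS the count of 4 came to 2 at 3-fold. In C6 over W5S the count of 2 came to 1 with a minimum of 10 FPKM, and in w5C6 over W5S the count of 4 came to 2 with that minimum and to 2 at 3-fold. With 0.1 FPKM added, PER34 passed 2-fold against W5NS both in C6 (-1.17) and in w5C6 (1.29). By Pearson correlation none of the 3 nearest loci of UPB1, PER37, PER39 or PER57 stayed on its list. No paired analysis was possible because the columns are pooled over libraries and carry no replicate number, and for the same reason no library could be left out. Depth is unknown, so no limit can be set for values at 0 or below 1 FPKM, as those of PER33 and most of PER38.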
